A study of Mus musculus with 6 samples.

Results

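The 30 genes described here encode proteins of the G2 phase and of mitosis: cyclins and Cdk1, Aurora and Polo kinases, spindle checkpoint proteins, kinesins, centromere proteins, spindle and cytokinesis factors, and 2 proteins of the mitotic chromosome. They were taken by symbol from a list of genes with known roles, and all 30 were found among the 24376 Ensembl gene IDs of each table. Messenger RNA of 6 libraries from C57BL/6 mice was sequenced, and all cells came from E14.5 fetal liver. In the shSamd14 group (3 libraries), blood progenitors enriched from the liver received an shRNA against Samd14 by retrovirus directly after isolation, and in the control group (3 libraries) they received a control shRNA by the same route. Both groups were then grown for 3 days in StemPro-34 medium, and CD71-, Ter119- cells were collected, which leaves out most cells in later erythroid maturation. The comparison asks how these genes stood in the Samd14 knockdown libraries relative to the control libraries.

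Cells enter mitosis when cyclin B binds and activates Cdk1, pass a checkpoint that waits until every chromosome is held by the spindle, and leave mitosis when the anaphase-promoting complex marks the cyclins for destruction. The genes of this programme are transcribed late in the cell cycle, largely under a repressor that contains the pocket protein encoded by Rbl2 and under activators that contain the products of Mybl2 and Foxm1. These complexes bind the cell cycle genes homology region (CHR), a short promoter element close to the transcription start, often with CCAAT boxes bound by NF-Y upstream of it. Fetal liver erythroid progenitors are known to divide quickly before they mature, and Samd14 encodes a sterile alpha motif protein that is known to act on signalling through the Kit receptor.

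RefSeq promoter windows, from 250 bases before to 50 bases after the start on GRCm38.p6, were available for 25 of the 30 genes, and 20 of these 25 (80.0%) held a CHR element. The element was searched as the word TTTGAA or TTCGAA on either strand (TTCGAA reads the same on both). Such a match of letters does not show that a complex binds there. Of 9755 tested genes with a window, 16.4% held one. The element nearest to a start is shown for 1 gene of each role, since most of these genes with a window held such a word. Capitals mark the element, each sequence is on the strand that reads TTTGAA, and coordinates are GRCm38.p6.
Ccnb2 (chr9:70421533-70421562, minus strand): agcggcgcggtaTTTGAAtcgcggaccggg
Plk1 (chr7:122159453-122159482, plus strand): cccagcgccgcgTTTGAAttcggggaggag
Ttk (chr9:83834684-83834713, minus strand): tccggaaacacgTTTGAAatttccccgctg
Kif23 (chr9:61946780-61946809, minus strand): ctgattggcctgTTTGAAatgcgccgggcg
Cenpf (chr1:189688067-189688096, minus strand): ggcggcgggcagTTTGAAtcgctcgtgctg
Prc1 (chr7:80294434-80294463, plus strand): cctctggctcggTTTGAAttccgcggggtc
Top2a (chr11:99024195-99024224, plus strand): tccctagtttcaTTTGAAcctttatctagc

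The element lay on the gene's own strand in Ccnb2, Plk1, Kif23, Cenpf and Prc1, and on the opposite strand in Ttk and Top2a. No such word was found in the windows of Ccnb1, Birc5, Mad2l1, Cenpe and Nusap1. A CCAAT box, searched as CCAAT on either strand and allowed to share bases with a CHR word, was present in 20 of the 25 genes (80.0%) and in 43.7% of the tested genes. Both elements were present in 18 of the 25 (72.0%), in 30 of 69 other mitosis genes (43.5%), in 4 of 24 S phase genes (16.7%) and in 7.07% of the tested genes. The 250 bases before the start of Top2a, which encodes the topoisomerase that untangles chromosomes, held 4 CHR words and 6 CCAAT boxes, and are shown as the densest example on the gene's strand, with both kinds of word in capitals.
Top2a (chr11:99024190-99024439, minus strand): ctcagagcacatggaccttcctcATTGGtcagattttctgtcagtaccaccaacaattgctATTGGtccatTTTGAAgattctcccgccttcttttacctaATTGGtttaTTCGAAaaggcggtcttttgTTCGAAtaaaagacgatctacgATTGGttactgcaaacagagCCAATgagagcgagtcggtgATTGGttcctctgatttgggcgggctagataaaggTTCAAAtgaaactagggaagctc

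Samd14 itself was measured at 41.9, 38.8 and 39.4 CPM (counts per 1000000, scaled between libraries) in the shSamd14 libraries, against 82.0, 82.1 and 83.8 CPM in the control libraries. Its level was 0.484 of the control level (log2 fold change -1.05, SE 0.06, adjusted p = 4.69e-07, edgeR quasi-likelihood test). Each library held 20584169 to 26462797 expected counts, at which 3 counts correspond to 0.113 to 0.146 CPM. Of 8 stem and progenitor markers Kit and Myb were the highest, at 422 to 474 and 355 to 387 CPM in the shSamd14 libraries. In the control libraries they had 495 to 656 and 343 to 365 CPM. The other markers of that list were lower, such as Gata2 at 83.3 to 87.7 CPM in shSamd14 and 64.9 to 80.2 CPM in control. Meis1 had 5.43 to 8.55 and 6.37 to 6.81 CPM in these groups, and Mecom 0.0399 to 0.185 and 0.0832 to 0.145 CPM. The RNA of Tfrc, which encodes CD71, was measured at 782 to 876 CPM in the shSamd14 libraries and 869 to 979 CPM in the control libraries, although the cells were collected as CD71-. Markers of B and T cells summed to 0.335 to 0.399 CPM in shSamd14 and 0.291 to 0.483 CPM in control. Markers of macrophages, hepatocytes and stroma summed to at most 46.8, 34 and 28 CPM in shSamd14 and 50.8, 49.8 and 29.8 CPM in control. Most of this came from Csf1r and Cd68, from Apoa1, and from Col1a2 and Pdgfrb, while C1qa, Serpina1a and Col3a1 of the same lists were at 0 in all 6 libraries. Nothing in the labels shows that the replicates were independent cultures. The p-values and confidence intervals here therefore set the difference between the groups only against the spread of these libraries, which may be technical.

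None of the 30 genes passed an adjusted p of 0.05 in edgeR, in a comparison in which 327 of 12670 tested genes (2.58%) passed, 167 higher (1.32%) and 160 lower (1.26%) in shSamd14. All 30 passed the filter on low counts. In edgeR, 2 of the 30, Ttk and Bub1, had an unadjusted p under 0.05, against 15.0% of all tested genes. No gene of the 30 passed an adjusted p of 0.05 with DESeq2 or with limma on log2 TPM, and none had an unadjusted p under 0.05 in DESeq2. Of the 30, 13 had a positive and 17 a negative log2 fold change, the values ran from -0.15 to 0.11, and their median was -0.02, beside 0.01 over all tested genes. Every one of the 95% confidence intervals lay inside a 1.3-fold difference in either direction, with bounds from 0.807-fold (Cenpf) to 1.2-fold (Plk1 and Cdc25c). The same held for 61.4% of all tested genes and for 88.1% of the 7407 tested genes in the CPM range of the 30. Summed over the 30 genes, the level was 5588, 5674 and 5426 CPM in the shSamd14 libraries and 5902, 5697 and 5271 CPM in the control libraries, so that the shSamd14 values lie inside the control range.

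**Figure D1:**
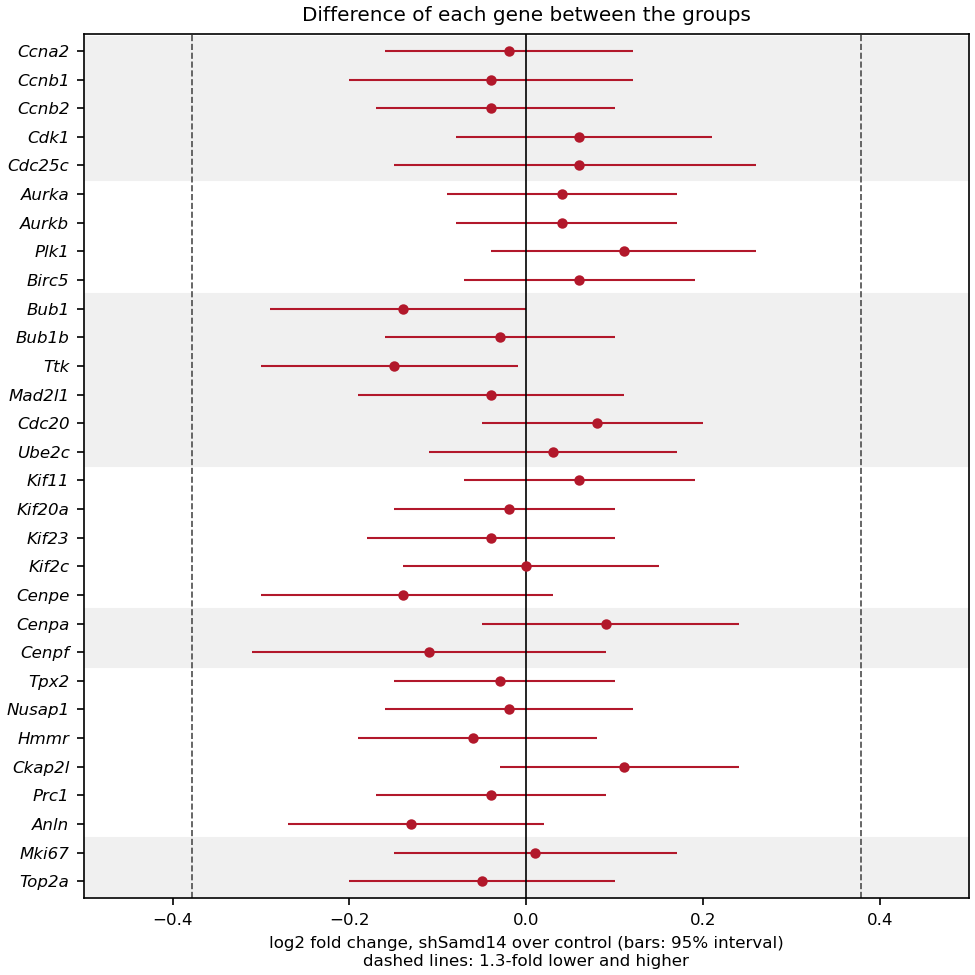
Log2 fold change of shSamd14 over control for the 30 genes (points, edgeR) with 95% confidence intervals (bars), in bands by role, with dashed lines at 1.3-fold. All intervals lie inside a 1.3-fold difference in either direction and the values run from -0.15 (Ttk) to 0.11 (Plk1, Ckap2l).

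The 3 libraries of each group did not overlap for 3 of the 30 genes, with Cdc20 and Ckap2l above and Ttk below in shSamd14, a share of 10% against 20.7% of all tested genes (10.5% with shSamd14 higher and 10.2% lower). For the other 27 genes the groups overlapped. With RLE scaling only Ttk remained apart (1 of 30, beside 20.5% of all tested genes). Without control replicate 3 the groups did not overlap for 15 of the 30, 2 higher and 13 lower in shSamd14. Of all tested genes, 34.7% did not overlap in that setting, 17.2% higher and 17.5% lower. In RNA from a whole cell population, fewer cells in G2 and mitosis and less RNA of these genes per cell cannot be told apart. Some of the genes share exonic bases with a neighbour, and whether counting used strand is not stated in any source at hand. This applies to Kif20a with Cdc23, Prc1 with Rccd1, Cdc25c with Gm3550, Ube2c with Tnnc2, Ccna2 with Exosc9, Nusap1 with Oip5 and Cdc20 with Elovl1. Plk1 and Ckap2l also share bases with Gm44985 and Gm14024 on the opposite strand, and Top2a with Gm23451 on its own strand. These last neighbours were not among the gene IDs at hand, so their levels are not known. The values of all these members are less certain because of the shared bases, by an amount that was not measured. The neighbours with a level differed in its mean, from 0.055 CPM for Tnnc2 and 0.765 CPM for Gm3550 to 123 CPM for Cdc23, before scaling between libraries.

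Compared per length in TPM, the 30 genes spanned a wide range of levels. Top2a was the highest, at a mean of 233 TPM over the 6 libraries and above 95.3% of the tested genes. It was followed by Birc5 at 196, Ccna2 at 189, Mki67 at 187, Ccnb1 at 185 and Ube2c at 179 TPM, whose neighbours in this order differ by less than their spread between libraries. At the low end stood Anln at 23.2, Cenpf at 16.3 and Cdc25c at 16.2 TPM, the last of these above 48.3% of the tested genes.

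**Figure D2:**
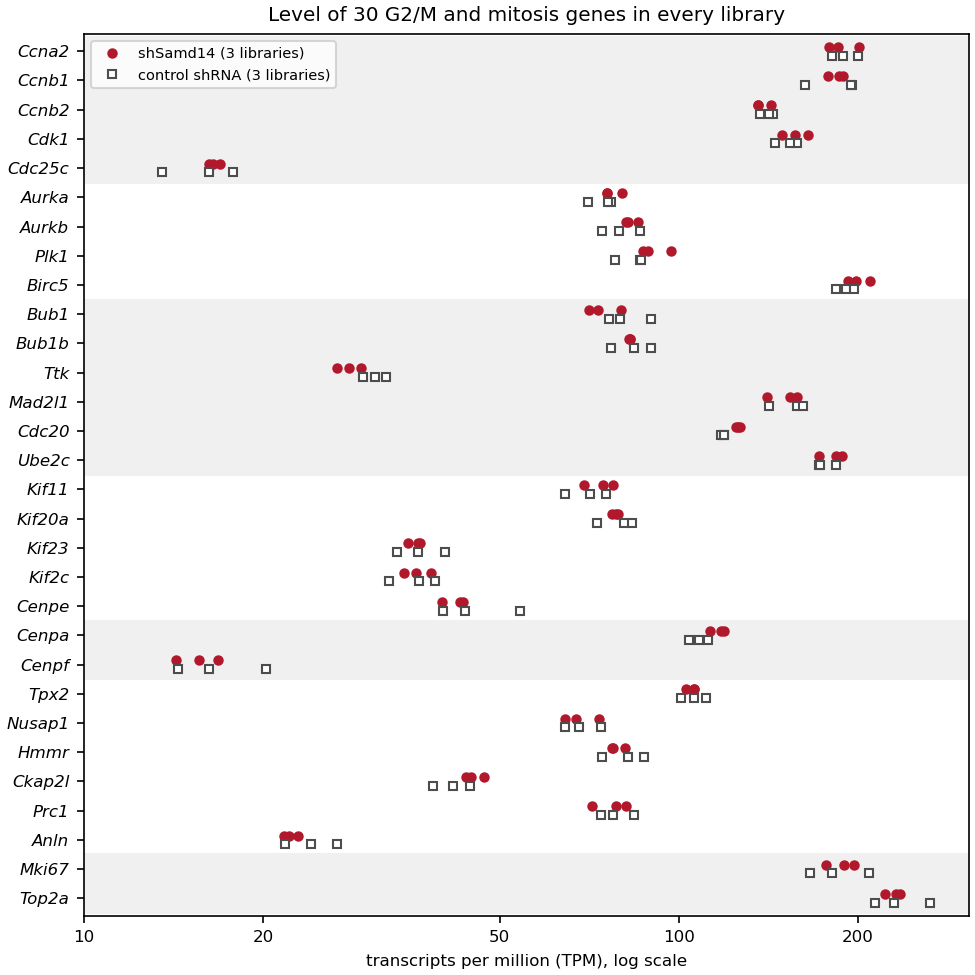
Level of each of the 30 genes in TPM (log axis) in every library, shSamd14 and control side by side. Top2a (mean 233 TPM) is highest and Cdc25c (16.2 TPM) lowest, and the 2 groups overlap for most genes.

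Among the cyclins, Cdk1 and its activator, 0 of 5 genes passed the test, and their summed level was 815 ± 50.7 CPM in shSamd14 and 823 ± 34.9 CPM in control (SD, n = 3 each). Cdk1 (chromosome 10, 69335146 to 69352938, minus strand; all gene positions are from mm10), the kinase that drives entry into mitosis, had 129, 129 and 116 CPM in shSamd14, against 119, 126 and 112 CPM in control. Ccnb1, which encodes cyclin B1, its main mitotic partner (chromosome 13, 100778650 to 100786570, minus strand), had 229, 217 and 197 CPM in shSamd14, against 229, 233 and 199 CPM in control. In both genes the library numbered 3 was the lowest of its group, and the groups overlapped. The log2 fold changes were 0.06 (SE 0.07, adjusted p = 0.703) for Cdk1 and -0.04 (SE 0.07, adjusted p = 0.848) for Ccnb1.

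Ccnb2, which encodes cyclin B2, had 126, 128 and 119 CPM in shSamd14, against 120, 133 and 131 CPM in control. Ccna2, which encodes cyclin A2, active from S phase into mitosis, had 337, 354 and 307 CPM in shSamd14, against 343, 343 and 328 CPM in control. The control values of Ccna2 lay inside the shSamd14 range and those of Ccnb2 overlapped it, and the log2 fold changes were -0.04 and -0.02 (adjusted p = 0.826 and 0.913). Cdc25c, which encodes a phosphatase that activates Cdk1, was the gene with the lowest counts, at 19.5, 19.2 and 18 CPM in shSamd14 and 19.8, 19.0 and 15.9 CPM in control, and had the largest standard error of the 30 (log2 fold change 0.06, SE 0.10). The TPM ratio of Ccnb1 to Ccnb2 was 1.34 ± 0.0478 in shSamd14 and 1.32 ± 0.148 in control (SD, n = 3 each).

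The Aurora and Polo kinases, with Birc5, were the only role group in which all 4 genes had a positive log2 fold change, and 0 of 4 passed the test. Plk1, the Polo kinase that acts on centrosomes, kinetochores and cytokinesis (chromosome 7, 122159439 to 122169873, plus strand), had 130, 113 and 112 CPM in shSamd14, against 109, 116 and 104 CPM in control. In CPM its shSamd14 mean rested on replicate 1, while the other 2 shSamd14 libraries lay inside the control range (log2 fold change 0.11, SE 0.07, adjusted p = 0.494). In TPM Plk1 had 97, 87 and 88.8 in shSamd14 and 86, 86.5 and 78.1 in control, so that its groups did not overlap. Birc5, which encodes survivin, a subunit of the chromosomal passenger complex, had 118, 121 and 110 CPM in shSamd14 and 108, 116 and 109 CPM in control. Aurkb, the kinase of that complex, had 96.8, 93.5 and 94.7 CPM in shSamd14 and 96.0, 93.2 and 87.3 CPM in control. Both sets of values overlap between the groups. Aurka, the kinase of centrosome maturation and spindle assembly, had 85.9, 83.2 and 85.5 CPM in shSamd14 and 82.2, 85.9 and 79.4 CPM in control. The Aurka to Aurkb ratio in TPM was 0.931 ± 0.00764 in shSamd14 and 0.933 ± 0.036 in control (SD, n = 3 each).

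The checkpoint and anaphase-promoting complex genes held the 2 smallest p-values of the 30, and 0 of 6 passed the test. Ttk, which encodes the checkpoint kinase Mps1 (chromosome 9, 83834689 to 83872389, plus strand), had 49.8, 50.4 and 44.6 CPM in shSamd14, against 54.2, 54.6 and 52.2 CPM in control. Every shSamd14 library lay below every control library, at 0.900 of the control level (log2 fold change -0.15, SE 0.07, adjusted p = 0.303). Bub1, a kinetochore kinase of the same checkpoint (chromosome 2, 127801122 to 127831865, minus strand), had 154, 163 and 141 CPM in shSamd14, against 179, 167 and 160 CPM in control. The groups overlapped only between the highest shSamd14 and the lowest control library, and the level was 0.904 of control (log2 fold change -0.14, SE 0.07, adjusted p = 0.333).

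The other checkpoint genes of this group stood closer to control. Bub1b, which encodes the checkpoint protein BubR1, had 187, 181 and 177 CPM in shSamd14 and 192, 189 and 173 CPM in control. Mad2l1, which encodes the Mad2 protein that holds back Cdc20, had 137, 137 and 119 CPM in shSamd14 and 133, 145 and 127 CPM in control. Both overlapped, with log2 fold changes of -0.03 and -0.04 (adjusted p = 0.889 and 0.848). The TPM ratio of Bub1b to Bub1 was 1.11 ± 0.0683 in shSamd14 and 1.02 ± 0.0277 in control (SD, n = 3 each).

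Cdc20, the activator of the anaphase-promoting complex in mitosis (chromosome 4, 118432901 to 118437352, minus strand), had 138, 132 and 129 CPM in shSamd14, against 121, 129 and 128 CPM in control. In TPM, its values were 127, 125 and 126 in shSamd14 and 118, 119 and 119 in control. The groups did not overlap in TMM-scaled CPM or in TPM but did with RLE scaling, and the difference was small against its error (log2 fold change 0.08, SE 0.06, adjusted p = 0.594). Ube2c, the ubiquitin-conjugating enzyme that works with that complex, had 107, 101 and 92.3 CPM in shSamd14 and 98.6, 97.2 and 98.0 CPM in control, so that the control values lay inside the shSamd14 range.

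The kinesins, which move along or take apart spindle microtubules, summed to 714 ± 10.2 CPM in shSamd14 and 729 ± 53.7 CPM in control (SD, n = 3 each), and 0 of 5 passed the test. Cenpe, the kinetochore motor that brings chromosomes to the spindle equator (chromosome 3, 135212537 to 135273611, plus strand), had 194, 202 and 198 CPM in shSamd14, against 248, 212 and 194 CPM in control. The shSamd14 libraries lay close together, and control replicate 1 was far above the other 5 libraries (log2 fold change -0.14, SE 0.08, adjusted p = 0.458). Without control replicate 1 the log2 fold change of Cenpe was -0.04. Kif11, the motor that pushes spindle poles apart, had 207, 224 and 210 CPM in shSamd14 and 213, 211 and 191 CPM in control. Kif20a, a motor of the central spindle, had 170, 167 and 164 CPM in shSamd14 and 173, 177 and 159 CPM in control. Neither gene separated the groups. Kif23, a motor of the centralspindlin complex, had 73.8, 74.2 and 72.9 CPM in shSamd14 and 80.6, 76.6 and 70.4 CPM in control. Kif2c, which takes apart microtubule ends, had the smallest difference of the 30, with 62.4, 58.2 and 62.9 CPM in shSamd14 and 63.8, 63.1 and 56.4 CPM in control (log2 fold change 0.00, SE 0.07, adjusted p = 0.991).

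The 2 centromere genes stood on opposite sides of 0. Cenpa, the histone H3 variant that marks centromeres (chromosome 5, 30666777 to 30674830, plus strand), had 96.3, 92.4 and 86.0 CPM in shSamd14, against 79.8, 90.3 and 87.0 CPM in control (log2 fold change 0.09, SE 0.07, adjusted p = 0.566). Cenpf, a large kinetochore protein (chromosome 1, 189640606 to 189688086, minus strand), had 99.2, 105 and 108 CPM in shSamd14, against 130, 110 and 97.5 CPM in control (log2 fold change -0.11, SE 0.09, adjusted p = 0.631). Without control replicate 1 the log2 fold change of Cenpf was 0.002. Both genes overlapped between the groups in CPM. In TPM Cenpa had 119, 118 and 113 in shSamd14 and 104, 112 and 108 in control, so that its groups did not overlap. In both genes control replicate 1 was the end value of its group, the lowest for Cenpa and the highest for Cenpf.

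Of the 6 spindle and cytokinesis genes 0 passed the test, 5 had a negative and 1 a positive log2 fold change. The positive one was Ckap2l, a spindle protein (chromosome 2, 129268210 to 129297212, minus strand), with 84.7, 87.7 and 81.4 CPM in shSamd14, against 81.2, 80.2 and 74.0 CPM in control. Its lowest shSamd14 library lay just above its highest control library, and the groups overlapped in TPM and with RLE scaling (log2 fold change 0.11, SE 0.06, adjusted p = 0.459). Anln, which encodes the actin-binding protein anillin of the cleavage furrow, had 73.0, 74.6 and 70.1 CPM in shSamd14 and 84.4, 80.5 and 72.8 CPM in control. Its 2 highest control libraries lay above every shSamd14 library, and the third lay among them (log2 fold change -0.13, SE 0.07, adjusted p = 0.412).

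The other 4 genes of that role had log2 fold changes between -0.06 and -0.02, all with overlapping groups. Tpx2, the activator of Aurka on the spindle, had 234, 231 and 225 CPM in shSamd14 and 238, 238 and 227 CPM in control. Hmmr, a spindle-associated hyaluronan receptor, had 186, 189 and 176 CPM in shSamd14 and 199, 197 and 178 CPM in control. Replicate 3 was the lowest library of its group in both genes. Nusap1, which bundles microtubules near chromosomes, had 119, 132 and 118 CPM in shSamd14 and 131, 125 and 119 CPM in control. Prc1, which bundles antiparallel microtubules of the central spindle, had 115, 122 and 117 CPM in shSamd14 and 128, 121 and 114 CPM in control.

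The 2 genes of the mitotic chromosome had the highest counts. Mki67, whose protein coats mitotic chromosomes and is used as a marker of proliferation (chromosome 7, 135689784 to 135716361, minus strand), had 1113, 1153 and 1166 CPM in shSamd14, against 1241, 1131 and 1037 CPM in control. Top2a (chromosome 11, 98992943 to 99024189, minus strand) had 717, 738 and 708 CPM in shSamd14, against 808, 740 and 690 CPM in control. In both genes the 3 shSamd14 libraries lay inside the control range. The log2 fold changes were 0.01 (SE 0.07, adjusted p = 0.966) for Mki67 and -0.05 (SE 0.07, adjusted p = 0.799) for Top2a.

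The spread of these genes within a group followed the library. In shSamd14, replicate 3 was the lowest library of its group for 22 of the 30 genes (73.3%), beside 37.1% of all tested genes. In control, replicate 3 was the lowest of its group for 25 of the 30 (83.3%), beside 35.4% of all tested genes, and replicate 1 was the highest for 19 of the 30 (63.3%), beside 35.1%. The median log2 deviation of the 30 genes from the mean of all 6 libraries was 0.01, 0.02 and -0.05 in shSamd14 and 0.05, 0.03 and -0.08 in control. The same libraries were low among 81 other mitosis genes, where replicate 3 was the lowest of its group for 49 genes in shSamd14 and for 53 in control. The genes share these libraries, so these counts describe the libraries and not independent genes.

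**Figure D3:**
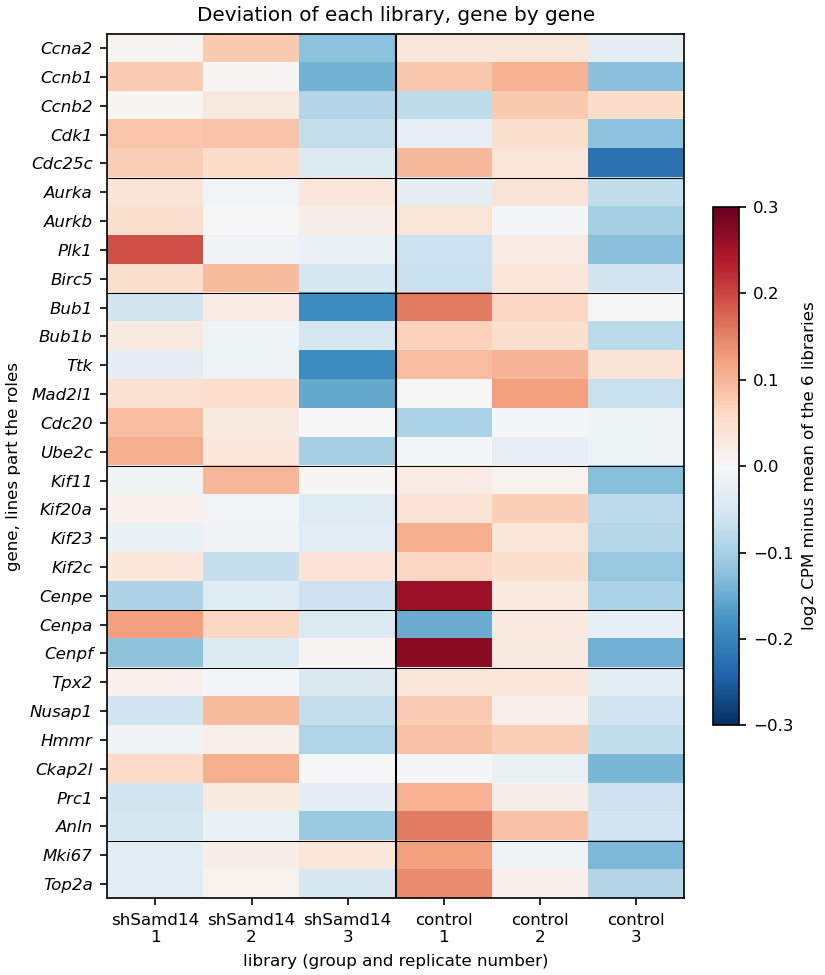
Log2 deviation of each of the 30 genes from its mean over the 6 libraries, by library, with shSamd14 libraries left of control libraries. Replicate 3 of each group lies below 0 for most genes (medians -0.05 in shSamd14 and -0.08 in control).

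The neutrophil markers, 8 genes such as Mpo, Elane and S100a8, moved with the same libraries: they summed to 3583, 3770 and 5318 CPM in shSamd14 and 3320, 3250 and 5243 CPM in control, so that replicate 3 was the highest of each group. Replicate 3 was also the highest of each group for summed markers of macrophages, eosinophils, mast cells with basophils, and endothelial cells, at lower levels. For macrophages the sums were 32.4, 33 and 46.8 CPM in shSamd14 and 40, 29.5 and 50.8 CPM in control. This did not hold for the other marker lists. The part of any of these markers' cells in the lower values of the mitosis genes was not tested. None of the 8 neutrophil markers passed the test between the groups. Without both replicates numbered 3, still none of the 30 genes passed. With the 2 libraries then left in each group, the groups did not overlap for 19 of the 30 genes (6 higher and 13 lower in shSamd14). Of all tested genes, 45.9% did not overlap then, 22.7% higher and 23.2% lower. Late erythroid markers, 8 genes that include alpha-globin, summed to 4480, 3807 and 4468 CPM in shSamd14 and 3262, 2556 and 3821 CPM in control, and 0 of 8 passed. Megakaryocyte markers summed to 357, 369 and 358 CPM in shSamd14 and 311, 289 and 269 CPM in control, and 3 of 8 (Pf4, Gp5 and Vwf) rose.

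The direction of the small differences went along with transcript length. Over the 30 genes, the correlation of the log2 fold change with the log2 length was -0.52 (Pearson) and -0.52 (Spearman), given as a description because the genes share the libraries. Among the 10 shortest transcripts, of 969 to 1943 bases, 8 had a positive log2 fold change. Among the 10 longest, of 3565 to 10993 bases, 2 did. For the longest 10 the median log2 deviation was -0.02, -0.01 and -0.05 in shSamd14 and 0.11, 0.03 and -0.08 in control, which puts control replicate 1 highest. Without control replicate 1 the correlation was -0.14 (Pearson) and -0.23 (Spearman). Without shSamd14 replicate 1 Pearson's r was -0.33, without any 1 of the other 4 libraries it was between -0.67 and -0.46, and without both replicates 3 it was -0.75. Over 81 other mitosis genes it was -0.30 with all libraries and -0.02 without control replicate 1, over 30 S phase genes it was 0.14, and over all tested genes it was -0.02.

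**Figure D4:**
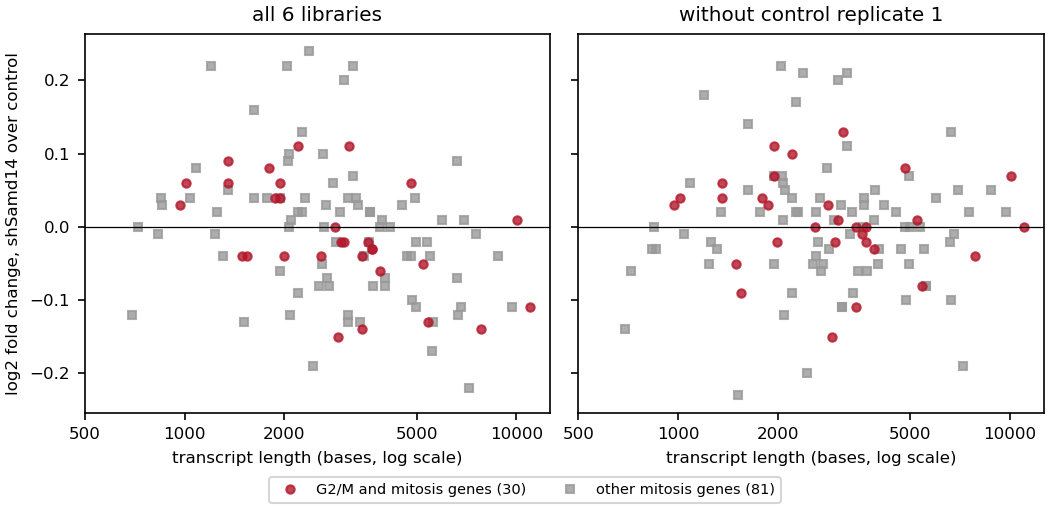
Log2 fold change of shSamd14 over control against transcript length (log axis) for the 30 genes (circles) and 81 other mitosis genes (squares), with all 6 libraries on the left and without control replicate 1 on the right. On the left, short transcripts such as Cenpa and Birc5 lie above 0 and long ones such as Cenpf and Cenpe below (r = -0.52 over the 30 genes), and on the right the relation is weaker (r = -0.14).

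Other genes of the cell cycle gave a frame for these values. Of the 81 other mitosis genes (kinetochore, checkpoint, condensin and cohesin, spindle and entry genes), 0 passed in edgeR, 8 had an unadjusted p under 0.05, and the range was -0.22 to 0.24. The smallest p among them belonged to Fzr1, which encodes Cdh1, the activator of the anaphase-promoting complex after mitosis. It had 60.5, 55.5 and 58.3 CPM in shSamd14, against 47.2, 50.5 and 49.6 CPM in control (log2 fold change 0.24, SE 0.06, adjusted p = 0.067). All 3 shSamd14 libraries lay above control, and the adjusted p was 0.0426 with no filter on low counts.

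Among 21 regulators of G2/M transcription, 2 rose and 0 fell. Rbl2, which encodes the pocket protein of the repressor complex at CHR elements, had 79.2, 86.3 and 91.9 CPM in shSamd14, against 60.1, 58.3 and 61.2 CPM in control. This was a 1.43-fold level in shSamd14 (log2 fold change 0.52, SE 0.07, adjusted p = 0.000827). E2f2, a transcription factor of the E2F family, had 85.9, 80.8 and 91.2 CPM in shSamd14, against 68.6, 63.1 and 66.3 CPM in control, a 1.3-fold level (adjusted p = 0.00683). In both genes the groups were well apart.

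Of 30 S phase genes, 1 rose and 1 fell. Rrm2, the small subunit of ribonucleotide reductase, which makes deoxynucleotides, had 326, 329 and 290 CPM in shSamd14, against 428, 419 and 409 CPM in control (0.752-fold, adjusted p = 0.00421). Clspn, which encodes the replication checkpoint adaptor claspin, had 110, 107 and 108 CPM in shSamd14, against 90.6, 93.7 and 83.8 CPM in control (1.21-fold, adjusted p = 0.0239). Neither gene's groups overlapped, but Clspn stayed past the threshold only without control replicate 2 and missed it without each of the other 5 libraries (adjusted p = 0.054 to 0.102), with log2 fold changes of 0.226 to 0.313 over all 6 omissions. The ratio of the summed G2/M and mitosis genes to the summed S phase genes was 0.837, 0.87 and 0.862 in shSamd14 and 0.952, 0.854 and 0.832 in control, in which control replicate 1 stands above the other 5 libraries.

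Of 17 inhibitors and genes of cell cycle exit, 16 were tested, 0 rose and 3 fell, all of them of the antiproliferative Tob and Btg family. Btg1, of the same family and list, did not pass (log2 fold change 0.03). Tob1 had 24.4, 27.2 and 23.0 CPM in shSamd14, against 38.2, 35.8 and 37.2 CPM in control (0.672-fold, adjusted p = 0.00126). Tob2 had 42.2, 37.8 and 42.7 CPM in shSamd14, against 52.0, 51.8 and 50.2 CPM in control (0.797-fold, adjusted p = 0.019). Btg2 had 38.0, 41.4 and 43.7 CPM in shSamd14, against 53.6, 49.1 and 66.5 CPM in control (0.727-fold, adjusted p = 0.0452). All 3 were lower in every shSamd14 library than in any control library. With 1 library left out, Tob1 passed each time. Tob2 missed the threshold without control replicate 1 (adjusted p = 0.0727), control replicate 2 (0.0586) or shSamd14 replicate 2 (0.114), and Btg2 missed it without each library except control replicate 2 (0.0542 to 0.157). Over all 6 omissions the log2 fold changes were -0.362 to -0.276 for Tob2 and -0.551 to -0.329 for Btg2, beside -0.33 and -0.46 with all libraries.

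**Figure D5:**
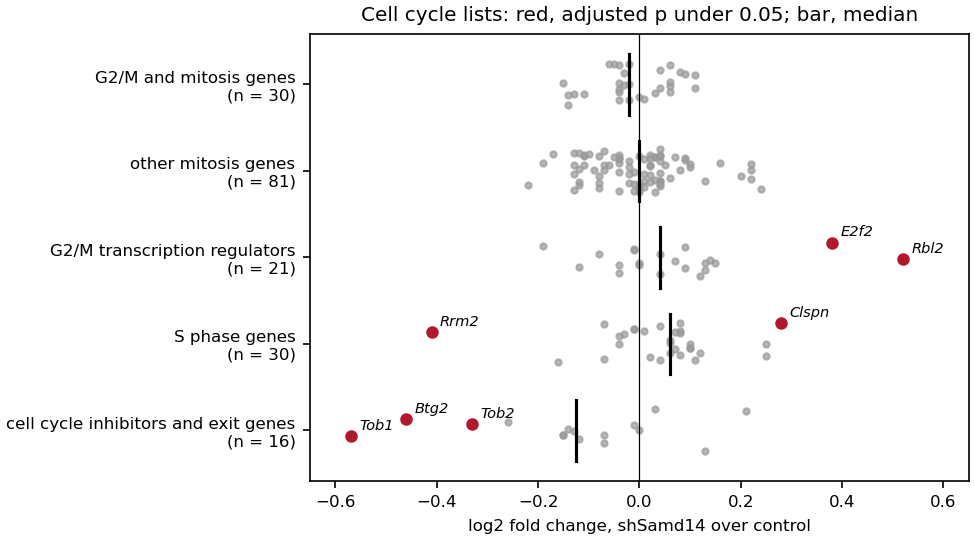
Log2 fold change of shSamd14 over control for the genes of each cell cycle list, with each list's median as a bar and genes past an adjusted p of 0.05 in red and named. The 30 G2/M and mitosis genes lie between -0.15 and 0.11, while Rbl2 (0.52), E2f2 (0.38), Rrm2 (-0.41) and Tob1 (-0.57) lie outside that range.

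Short words known to be frequent in the 3′ untranslated regions of the genes that changed in these data were also searched in the 30 genes. The words CTGATTA and TGATTAA, which overlap each other by 6 bases, were present in 99 of 167 genes that rose (59.3%) and in 13.8% of the 11520 genes that did not pass. Of the 30 genes, 3 (10%) held one, namely Cdk1, Kif11 and Prc1. The words CAAGTGT and AAGTGTA, which also overlap by 6 bases, were present in 90 of 157 searched genes that fell (57.3%) and in 21.2% of those that did not pass. Of the 30 genes, 4 (13.3%) held one, namely Cdk1, Mad2l1, Kif11 and Cenpf. The words were chosen on these samples, so these shares are a description. The search used the longest annotated region of each gene, which can be longer than the transcript measured. The first-kind word of Cdk1 starts at base 4109 of the annotated transcript and the words of Mad2l1 at base 5703 or later, while the lengths in the deposited tables were 1350 and 1488 bases, so these words lie beyond the measured length. Sites within the measured length are shown for Kif11, which holds words of both kinds, Prc1 and Cdk1, none of which passed, beside those of Rbl2, which rose, and Rrm2, which fell, with the word in capitals (GRCm38).
Kif11, first kind (chr19:37420870-37420896, plus strand): ttctatctcaCTGATTAcccttacaat
Prc1, first kind (chr7:80315723-80315749, plus strand): cgcggacattTGATTAAtgctgtagct
Rbl2, first kind (chr8:91122530-91122556, plus strand): aatccagcaaCTGATTAaaggagggga
Cdk1, second kind (chr10:69338253-69338279, minus strand): tactataacaCAAGTGTtaattactac
Kif11, second kind (chr19:37421264-37421290, plus strand): acctacctaaAAGTGTAtgcagagagt
Rrm2, second kind (chr12:24713919-24713945, plus strand): acaggaaaagCAAGTGTtccctgaggt

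Kif11, with sites of both kinds, had a log2 fold change of 0.06, Cdk1 0.06 and Prc1 -0.04, whereas Rbl2 had 0.52 and Rrm2 -0.41. Other genes of the cell cycle lists passed as well. Among them, no word of either kind was found in E2f2 (0.38), Tob1 (-0.57) or Btg2 (-0.46). Tob2 (-0.33) held words of the second kind within its measured length. The first-kind words of Clspn (0.28) start at base 4378 or later, beyond its measured length of 4212 bases. A match of letters is a description and not a binding site.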

How the data were processed

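Polyadenylated RNA was measured in 6 libraries, 3 shSamd14 and 3 control, grouped by their titles. Per the file headers, every library has its own RSEM table of genes, in which the authors deposited expected counts beside TPM and FPKM. RSEM divides a read that maps to more than 1 gene among those genes, so an expected count is less sure for close paralogs. The TPM and FPKM of the authors are scaled for transcript length and library; FPKM entered no result. Tools named in the submitters' processing notes are RSEM 1.2.15, Bowtie 1.0.1 and CASAVA 1.8.2, with mm10 as the build. Their settings, the annotation release, strand use and the target of the control shRNA are not given in the sources used for this comparison.

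Rounded expected counts were compared in edgeR 4.0.16 (R 4.3.3): filterByExpr (minimum count 10, minimum total 15; 12670 genes kept), TMM scaling (factors 0.986 to 1.021), the robust two-sided quasi-likelihood test, and Benjamini-Hochberg adjustment over all tested genes at 0.05. The biological coefficient of variation, as edgeR names it, was 7.52%. Symbols (23580 of 24376 IDs) came from a reference list of gene names by Ensembl ID. Gene positions and 3′ UTR sites came from GENCODE M21, which is on GRCm38 (mm10), and promoter windows from RefSeq on GRCm38.p6. The 30 genes and all lists were chosen with earlier results of these data known. Named genes were the 30, Samd14, and in each other list up to 4 genes with the smallest p that passed, or the 1 gene with the smallest p where none did. The test was tried on simulated counts. Alternatives were DESeq2 1.42.0, limma 3.58.1 on log2(TPM + pseudocount of 1 or 0.1), RLE scaling, other filters, a replicate block and leaving out each library. Depth bounds cover counting error only.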

Additional observations from a re-analysis of the deposited data

How the results depend on the processing

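Across 14 alternatives, 0 of the 30 genes passed the threshold under any; of 420 gene and alternative combinations 395 kept the sign and 25 had the opposite sign, 17 genes kept their sign under every alternative, and the largest absolute log2 fold change was 0.236. Leaving out 1 library at a time gave log2 fold changes of -0.070 to 0.028 for Ccna2, -0.117 to 0.014 for Ccnb1, -0.044 to 0.113 for Cdc25c, -0.001 to 0.069 for Aurkb, -0.088 to 0.022 for Mad2l1, -0.027 to 0.082 for Ube2c, -0.074 to 0.007 for Kif20a, -0.059 to 0.035 for Kif2c, -0.209 to 0.002 for Cenpf, -0.077 to 0.007 for Nusap1, -0.058 to 0.073 for Mki67 and -0.109 to 0.008 for Top2a. With both replicates 3 left out, an alternative chosen after seeing the data, the signs of Ccna2 (0.007), Ccnb2 (0.007), Cdc25c (-0.006), Kif2c (-0.077) and Mki67 (-0.069) turned, and limma on TPM gave 0.002 for Ccnb1; the cause was not tested. The count of the 30 genes whose groups do not overlap, 3, was 1 with RLE scaling, beside 20.5% of all tested genes. In TPM it was 4 (3 higher and 1 lower), beside 18.8% of all (11.5% higher and 7.3% lower). Without both replicates 3 it was 19 (6 higher and 13 lower), beside 45.9% of all (22.7% higher and 23.2% lower). With 1 library left out it was 3 to 15, beside 27.7% to 34.7% of all. The 15 came without control replicate 3 (2 higher and 13 lower), beside 17.2% higher and 17.5% lower of all. Over all genes, 327 passed, 488 with no filter on low counts, 426 in DESeq2, and 168 and 170 in limma on TPM with a pseudocount of 1 and 0.1. With 1 library left out 128 to 283 passed, 128 without shSamd14 replicate 2 and 153 without control replicate 1. Of the other cell cycle lists 7 genes passed, 10 with no filter, 10 with the replicate number as a block, 9 in DESeq2, and 4 and 4 in limma. With 1 library left out 4 to 7 passed. Clspn and Btg2 missed the threshold in 5 of these 6 fits, Tob2 in 3, while Rbl2, E2f2, Rrm2 and Tob1 passed in all.

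Libraries with the same replicate number correlated in their deviations at -0.072, 0.153 and 0.272, and the labels give no pairing. Between libraries with different replicate numbers the values ran from -0.289 to 0.177. With the replicate number as a block, 682 genes passed (322 higher and 360 lower in shSamd14), none of the 30 among them, and Fzr1 had an adjusted p of 0.0481. With 3 libraries a group, the intervals bound the difference in each gene only against the spread of these libraries, which may be technical.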
